A study of Mus musculus with 6 samples.

Results

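The peptide loading complex and its trimming peptidase were followed through 8 genes: Tap1, Tap2, Tapbp, Tapbpl, Calr, Canx, Pdia3 and Erap1. They were chosen by symbol, and all 8 were found among the 24421 symbols of the expression table. Cytosolic peptides reach the endoplasmic reticulum (ER) through the transporter formed by Tap1 and Tap2. There tapasin, encoded by Tapbp, bridges the transporter to newly made MHC class I molecules, together with the lectin calreticulin (Calr) and the oxidoreductase ERp57 (Pdia3). Calnexin (Canx) holds class I heavy chains before calreticulin does, TAPBPR (Tapbpl) is a tapasin relative that edits peptides outside the complex, and the aminopeptidase ERAP1 trims peptides inside the ER. Lymphocytes and antigen-presenting cells express this machinery at high levels, and interferon gamma induces its dedicated parts in many other cells.

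The study profiled total RNA of mammary tissue from female FVB/NJ mice aged 5 months, in 3 mammary gland and 3 mammary tumour libraries. Tumours came from tumour-bearing MMTV-Tg(LINK-A) mice, in which a transgene for the long non-coding RNA LINK-A is named with the mouse mammary tumour virus promoter, active mainly in mammary epithelium. Glands came from mice labelled Tg(LINK-A), so the transgene is named in both groups and MMTV in the tumour group alone, and the donor label cannot be told apart from the tissue. Whether each library came from its own animal is not in the labels, and p-values therefore measure the spread between samples, which may be technical. The LINK-A RNA was not analysed here. The title of the series concerns loss of antigenicity, and the tumour and gland comparison addresses the RNA level of the loading machinery. Protein levels were not analysed here.

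Levels are in FPKM, a measure scaled by transcript length and by library total, which allows genes of different length to be set side by side. The header of the table names no unit, and FPKM was taken from the form of the values. Their sum per library lay between 486080 and 582996 FPKM, and absolute depth is unknown. Several libraries stood apart by their marker genes. Gland 2 held skeletal muscle RNA, with 5 muscle markers summing to 11152 FPKM, or 2.18% of its total, against 13.1 FPKM in gland 1 and 996 FPKM in gland 3. Glands 1 and 3 held more lymphocyte RNA: 12 T and NK cell markers summed to 298 and 305 FPKM there, to 119.6 FPKM in gland 2 and to 69.1, 57.7 and 10.3 FPKM in tumours 1 to 3. The 11 B cell and lymph node markers summed to 242 and 239 FPKM in glands 1 and 3, to 41.3 FPKM in gland 2 and to between 1.76 and 60.6 FPKM in the tumours. Cd3d, Ncr1, Klrb1c, Nkg7, Ms4a1, Fcer2a and Ccl21a were among the markers listed at 0 in at least 1 library. Epithelial markers were present in both tissues, and all 11 luminal markers were higher in each tumour than in each gland, summing to 3164 to 3571 FPKM against 1182 to 1256 FPKM. Fewer cells of a type and less RNA per cell cannot be told apart in these bulk samples.

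The loading machinery did not move as a unit. Of its 8 genes, 2 rose in the tumours (Calr and Pdia3), 3 fell (Tap2, Tapbpl and Erap1) and 3 did not pass an adjusted p of 0.05 in limma (Tap1, Tapbp and Canx). Of all 13364 genes tested, 21.9% were called higher, 23.1% lower and 45.1% in either direction, so these counts are not far from the background. The numbers of genes called higher and lower were 2933 and 3090, and became 3612 and 2672 after quantile normalization and 2279 and 3178 with a common sum per library. The 3 tumour values lay above the 3 gland values for Calr and Pdia3 and below them for Tap2, Tapbpl and Erap1, where 58.2% of all tested genes lay apart in either direction, 29.3% above and 29% below. No change reached 2-fold, and the median log2 difference was -0.12 over the 8 genes and 0.01 over all tested genes. A fit without glands 1 and 3 left gland 2 alone on its side, so its calls are not read. In that fit the differences of Calr and Pdia3 were larger (0.91 and 0.82) and those of Tap2, Tapbpl and Erap1 smaller (-0.33, -0.48 and -0.31).

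**Figure D1:**
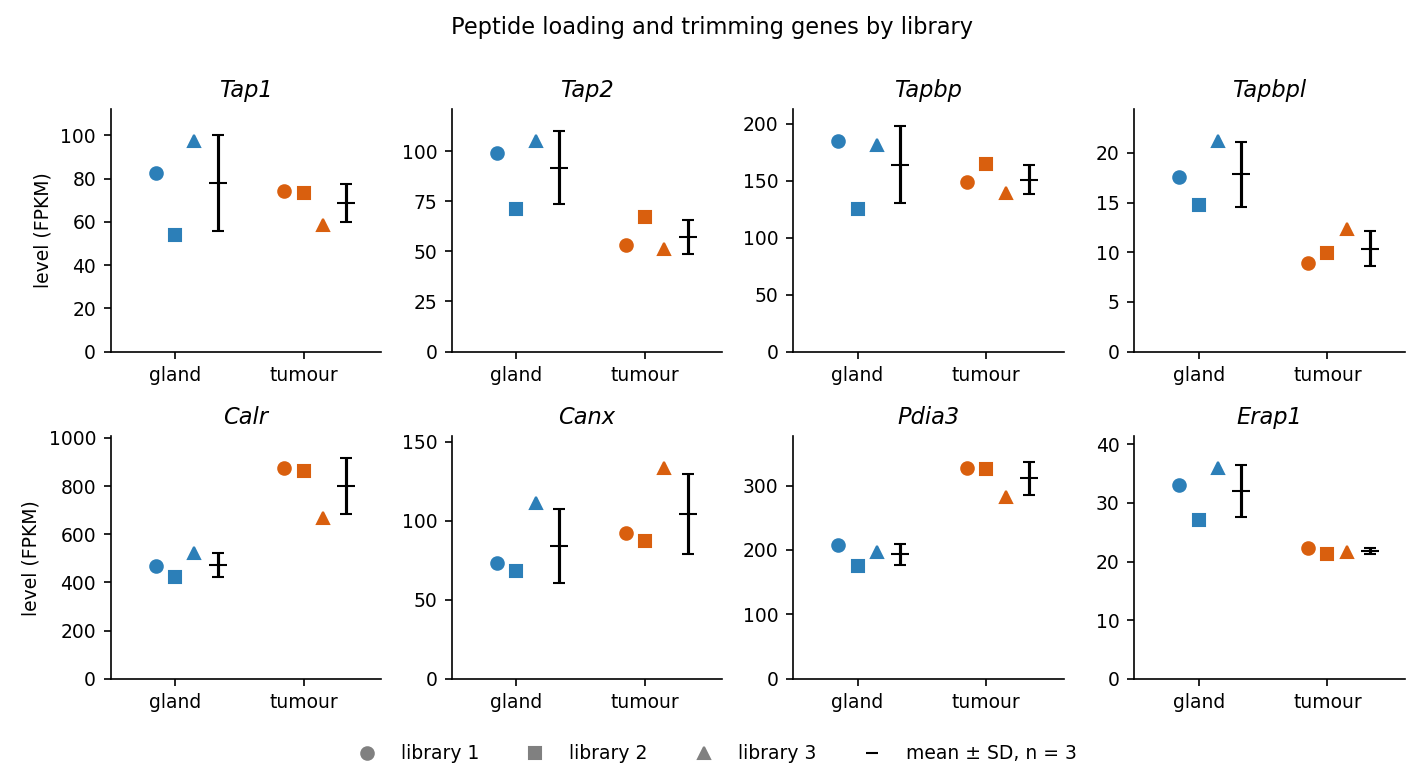
Level in FPKM of each loading and trimming gene in 3 gland (blue) and 3 tumour (orange) libraries, with symbols for the library number and bars for mean ± SD. Calr and Pdia3 stand higher in every tumour than in any gland, Tap2, Tapbpl and Erap1 lower, and gland 2 is the lowest gland for all 8 genes.

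Calr was the most abundant of the 8 genes and rose most. Calreticulin is a calcium-binding lectin of the ER that holds monoglucosylated class I molecules in the loading complex. Its RNA measured 469.6, 424 and 523 FPKM for glands 1 to 3 and 875, 863 and 668 FPKM for tumours 1 to 3. Each tumour lay above each gland, and tumour 3 was the lowest tumour. The rise was 1.69-fold (95% interval 1.31 to 2.19), a difference of 0.76 in log2(FPKM + 1) with SE 0.16 and adjusted p = 0.00775 in limma. The log2(FPKM + 1) scale is used for every difference below and understates changes of low genes. Folds and multiples of the gland level are ratios of FPKM + 1 taken from that scale.

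Pdia3 encodes ERp57, the oxidoreductase that is disulfide-linked to tapasin in the complex and works with calreticulin and calnexin on other glycoproteins. Its level was 207, 176 and 197 FPKM in the glands and 327, 325 and 281 FPKM in the tumours. The groups did not overlap, and tumours 1 and 2 were almost equal. The difference was 0.68 (SE 0.12, adjusted p = 0.0037 in limma), or 1.61-fold with an interval of 1.32 to 1.95. Pdia3 and Calr kept their call without any 1 library, at 0.62 to 0.75 and 0.68 to 0.88.

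Canx, the membrane-bound lectin that shares substrates with calreticulin, did not pass the test. Its level was 73.0, 68.4 and 111 FPKM in the glands and 92.5, 87.4 and 133 FPKM in the tumours. Library 3 was the highest of each group, and gland 3 lay above tumours 1 and 2. The difference was 0.32 with an interval from -0.24 to 0.87 (adjusted p = 0.311 in limma). This interval contains the Calr difference of 0.76. The Canx difference was 0.13 without tumour 3, 0.19 without gland 2, 0.53 without gland 3 and 0.58 without glands 1 and 3. Within a library, Calr stood 2.50 ± 0.24 log2 units above Canx in the glands and 2.94 ± 0.54 in the tumours (SD, n = 3 each), and these ranges overlapped (exact permutation test, p = 0.3, 0.4 adjusted over 4 ratios). Pdia3 stood 1.28 ± 0.12 log2 units below Calr in the glands and 1.35 ± 0.10 in the tumours, a change of -0.07 (exact permutation test, p = 0.6, 0.6 adjusted).

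Calr and Canx share a promoter feature with several ER chaperone genes. The ER stress element, CCAAT and CCACG separated by 9 bases, is bound by factors of the unfolded protein response. It was searched on both strands in windows from 250 bases before to 50 bases after each RefSeq gene start of GRCm38.p6, the assembly also called mm10. It was found in 2 of the 6 loading genes with a window, Calr and Canx, and in 5 of 16 genes of the ER chaperone and glycoprotein folding list: Hspa5, Hsp90b1, Pdia6, Dnajc3 and Creld2. Of all 32851 windows, 0.119% held it. The 250 bases before the start are given for Calr (chr8:84846932-84847181, minus strand), Canx (chr11:50325674-50325923, minus strand) and, as the reference case for this element, Hspa5 (chr2:34771840-34772089, plus strand), each 5′ to 3′ along the gene with the element in capitals. In Calr the element is read on the opposite strand, from position -162 to -144, in Canx from -145 to -127 and in Hspa5 from -65 to -47.
Calr: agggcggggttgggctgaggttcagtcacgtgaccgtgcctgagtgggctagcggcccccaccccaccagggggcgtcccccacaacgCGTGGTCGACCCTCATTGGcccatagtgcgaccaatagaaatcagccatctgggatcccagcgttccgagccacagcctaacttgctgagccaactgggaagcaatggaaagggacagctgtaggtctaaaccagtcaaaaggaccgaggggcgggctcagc
Canx: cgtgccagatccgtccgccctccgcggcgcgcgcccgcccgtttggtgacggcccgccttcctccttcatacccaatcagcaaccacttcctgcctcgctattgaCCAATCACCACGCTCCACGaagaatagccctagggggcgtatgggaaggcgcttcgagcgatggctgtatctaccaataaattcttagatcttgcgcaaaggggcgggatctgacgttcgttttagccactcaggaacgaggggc
Hspa5: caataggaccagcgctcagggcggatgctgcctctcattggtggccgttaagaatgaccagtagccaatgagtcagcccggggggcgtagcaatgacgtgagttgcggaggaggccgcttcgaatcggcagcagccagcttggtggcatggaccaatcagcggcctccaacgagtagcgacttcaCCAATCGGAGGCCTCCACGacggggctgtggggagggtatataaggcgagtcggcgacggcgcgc
The match was present in Calr, which rose, and in Canx, which did not pass, and absent from the Pdia3 window, whose gene rose. A match describes these letters only and shows no binding.

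The rise of Calr and Pdia3 stood beside other genes of their folding pathway. Of 19 tested genes of the ER chaperone and glycoprotein folding list, 12 were higher, 0 lower and 7 did not pass. Among all tested genes, 21.9% were called higher and 23.1% lower. The median log2 difference was 0.60 in the list against 0.01 over all tested genes. P4hb, a protein disulfide isomerase, rose from 241 ± 6.43 to 561 ± 34.1 FPKM (1.22, SE 0.11, adjusted p = 2.09e-04 in limma). Uggt1, which returns misfolded glycoproteins to calnexin and calreticulin by reglucosylation, rose from 12.7 ± 1.05 to 25.7 ± 2.05 FPKM (0.97), and the chaperone BiP (Hspa5) from 228 ± 15.3 to 447 ± 36.0 FPKM (0.96). Hyou1, a large ER chaperone, rose by 0.89. The cyclophilin gene Ppib (0.13) and the chaperone gene Erp29 (0.45) were the most abundant that did not pass, and both passed without tumour 3, at 0.41 and 0.62. Ppib turned to -0.0020 after quantile normalization, and Erp29 passed with a common sum per library, at 0.38. Clgn, the testis relative of calnexin, was listed at 0 in every library. Calls without glands 1 and 3 are not read for this list, since 1 gland then stood for its group.

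**Figure D2:**
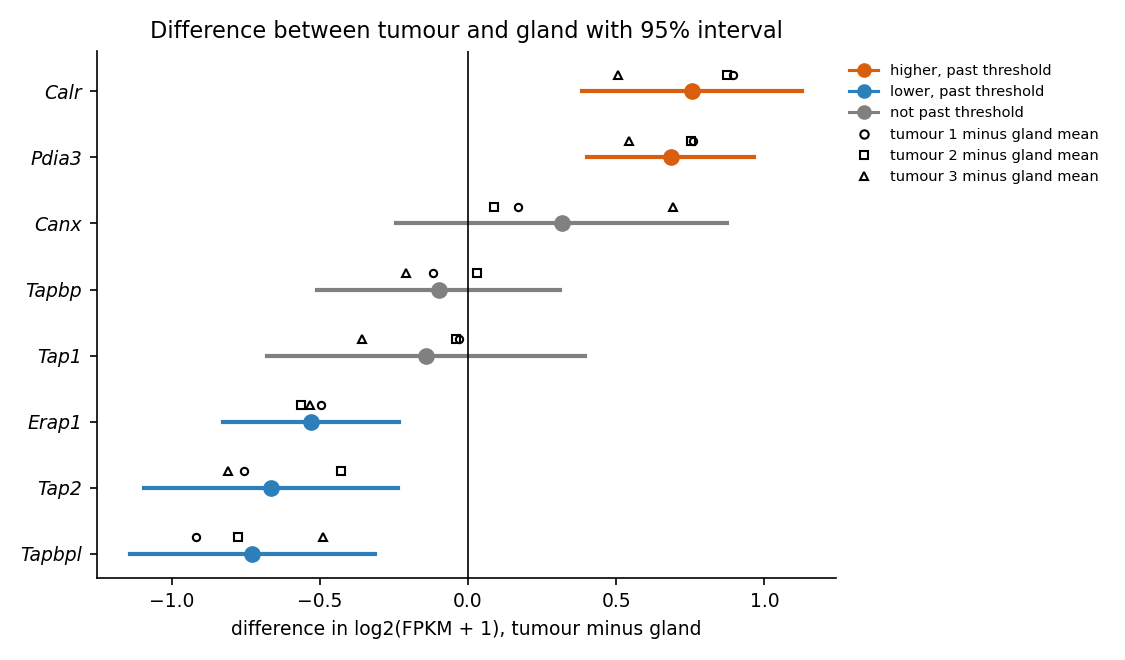
Difference in log2(FPKM + 1), tumour minus gland, for each gene, with its 95% interval from limma (thick line) and each tumour against the gland mean (open symbols). Calr and Pdia3 lie to the right of 0, Tap2, Tapbpl and Erap1 to the left, and the intervals of Tap1, Tapbp and Canx cross 0.

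Of the transporter genes, Tap2 fell and Tap1 did not pass, and the interval of the Tap1 difference contains the Tap2 difference of -0.67. Tap2, which forms the peptide pump with Tap1, measured 98.9, 71.3 and 105 FPKM for glands 1 to 3 and 53.3, 66.96 and 51.2 FPKM for tumours 1 to 3. No tumour reached the lowest gland, and tumour 2 came closest to it. The difference was -0.67 (SE 0.18, adjusted p = 0.0223 in limma), a level in the tumours of 0.63 times that of the glands (0.469 to 0.848). Its call was lost without gland 1, gland 3 or tumour 1, at -0.60, -0.56 and -0.62 (adjusted p = 0.0741, 0.0825 and 0.0582 in limma). Without any 1 library its adjusted p in limma lay between 0.0084 and 0.0825.

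Tap1 measured 82.4, 53.7 and 97.5 FPKM across the glands and 74.0, 73.5 and 58.7 FPKM across the tumours. The tumours fell inside the range of the glands, whose SD of 22.2 FPKM was 28.6% of their mean. The difference was -0.14 with an interval from -0.68 to 0.39 (adjusted p = 0.636 in limma), and it was -0.39 without gland 2, 0.04 without gland 3 and 0.34 without glands 1 and 3. It was -0.08 without gland 1 and -0.03 without tumour 3. Tap1 lay below Tap2 in every gland and above it in every tumour: the log2 ratio of Tap1 to Tap2 was -0.26, -0.40 and -0.11 in glands 1 to 3 and 0.47, 0.13 and 0.20 in tumours 1 to 3. This shift of 0.52 had p = 0.1 in a 2-sided exact permutation test, the smallest that 3 against 3 allows, and 0.2 adjusted over the 4 ratios. It needs no scaling between libraries, and it lay between 0.42 and 0.60 without any 1 library and was 0.67 without glands 1 and 3.

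Tap1 and Tap2 lie in the MHC class II region of chromosome 17 with the immunoproteasome genes Psmb9 and Psmb8. In GENCODE M21 on GRCm38, Tap1 spans 34187553 to 34197225 and Tap2 34203527 to 34216321, both on the plus strand. Psmb9 runs the other way and its annotated span shares 212 bases with Tap1. Transcription of Tap1 and Psmb9 starts from a shared promoter region, whose 225 bases between the RefSeq starts (GRCm38.p6, chr17:34187331-34187555, plus strand, from Psmb9 to Tap1) are shown because it separates a gene that fell from one that did not pass.
Psmb9-Tap1: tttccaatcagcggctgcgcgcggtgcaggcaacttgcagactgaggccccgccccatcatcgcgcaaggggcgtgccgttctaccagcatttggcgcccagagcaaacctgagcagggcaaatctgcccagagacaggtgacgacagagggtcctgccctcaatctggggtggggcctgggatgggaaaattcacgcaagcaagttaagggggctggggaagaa
The Tap1 and Psmb9 windows held no match to the IRF element (GAAA and GAAA separated by 2 bases), the gamma-activated site (TTCNNNGAA), the ER stress element or the XBP1 element (TGACGTGG), which were in 3.44%, 8.30%, 0.119% and 0.676% of all windows. Of 13 genes with a window among class I chains, proteasome parts and regulators, 4 held the IRF element and 3 the gamma-activated site. Only these letters in these windows were searched, so the lack of a match does not show that a site is absent. Psmb9 fell from 207, 138 and 208 FPKM in glands 1 to 3 to 124, 108 and 59.0 FPKM in tumours 1 to 3 (-0.97, SE 0.30, adjusted p = 0.0365 in limma), beside the Tap1 difference of -0.14. The intervals of Psmb9 (-1.68 to -0.25) and Tap1 (-0.68 to 0.39) overlap, and whether their differences are unlike was not tested. The call of Psmb9 was lost without gland 1, gland 3 or tumour 2, at -0.87, -0.87 and -1.08 (adjusted p = 0.103, 0.114 and 0.0629 in limma). It was also lost with no filter on low values and with the replicate number as a block (adjusted p = 0.0510 and 0.0535 in limma). Psmb8, between Tap1 and Tap2 and named here after its values were seen, had 286 ± 46.4 FPKM in gland and 299 ± 56.8 FPKM in tumour tissue (0.06, adjusted p = 0.814), and it was -0.066 after quantile normalization and -0.0072 with a common sum per library.

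Tapbp was the third most abundant of the 8 genes in both tissues. Tapasin holds class I molecules at the transporter and favours the binding of stable peptides. Glands 1 to 3 held 185, 125 and 182 FPKM of Tapbp, tumours 1 to 3 held 149, 165 and 139.7 FPKM. All tumours lay between gland 2 and the other glands. The difference was -0.10 with an interval from -0.51 to 0.31 (adjusted p = 0.668 in limma). It was -0.28 without gland 2, -0.16 without tumour 2, -0.04 without tumour 3, -0.01 without gland 3, -0.00095 without gland 1 and 0.27 without glands 1 and 3. The Tapbp span on chromosome 17 (33915899 to 33929292) overlaps Zbtb22 on the same strand, a gene at 12.8 ± 0.98 FPKM in gland and 14.3 ± 2.82 FPKM in tumour tissue. The spans of Tap2 and Tapbp also overlap non-coding genes on the opposite strand, which the table does not list under their GENCODE names.

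Tapbpl had the lowest level of the 8 genes and the largest fall. The glands held 17.6, 14.7 and 21.2 FPKM of it, the tumours 8.87, 9.88 and 12.3 FPKM. All tumours lay under the lowest gland, and tumour 3 was the highest tumour. The difference was -0.73 (SE 0.17, adjusted p = 0.0138 in limma), or 0.604 times the gland level on the FPKM + 1 scale (0.454 to 0.804). The call was lost without gland 3, at -0.60 (adjusted p = 0.0536 in limma, with 0.00718 to 0.0536 without any 1 library). The level of Tapbpl is uncertain because its whole span (chromosome 6, 125223933 to 125231860) lies within that of Vamp1 on the opposite strand, and no source used here states whether the libraries kept strand, so reads of the overlap cannot be told apart. Vamp1, a vesicle fusion gene, went the other way, from 5.41, 4.31 and 5.78 FPKM in the glands to 15.9, 22.4 and 95.4 FPKM in the tumours. Within a library, Tapbp stood 3.12 ± 0.18 log2 units above Tapbpl in the glands and 3.75 ± 0.30 in the tumours, without overlap (exact permutation test, p = 0.1, 0.2 adjusted over 4 ratios).

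Erap1, the peptidase that shortens peptides to the length class I molecules hold, fell to almost the same level in each tumour. Levels were 33.1, 27.1 and 36.0 FPKM for glands 1 to 3 and 22.3, 21.2 and 21.7 FPKM for tumours 1 to 3. The SD was 2.46% of the mean in the tumours and 14.1% in the glands. The difference was -0.53 (SE 0.13, adjusted p = 0.0133 in limma), or 0.693 times the gland level (0.564 to 0.851). It lost its call without gland 1 or gland 3, at -0.50 and -0.44 (adjusted p = 0.0529 and 0.0576 in limma, with 0.00704 to 0.0576 without any 1 library). Its span on chromosome 13 (74639568 to 74693201) shares 834 bases at the 3′ end with Cast on the opposite strand, with 24.4 ± 1.17 FPKM in gland and 28.1 ± 5.62 FPKM in tumour tissue. Its window held an IRF element on the opposite strand across the start, from position -4 to 6.

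The order of levels changed little between the tissues. From the highest, it was Calr, Pdia3, Tapbp, Tap2, Canx, Tap1, Erap1 and Tapbpl in the glands and Calr, Pdia3, Tapbp, Canx, Tap1, Tap2, Erap1 and Tapbpl in the tumours. In the glands the ranges of Pdia3 and Tapbp, of Tap2 and Canx and of Canx and Tap1 overlapped. The genes share their libraries, so overlapping ranges do not show equal levels. Pdia3 lay above Tapbp in each gland, while Tap2 and Canx, and Canx and Tap1, changed places between glands. In the tumours only the ranges of Tap1 and Tap2 overlapped among neighbours in the order, though Tap1 lay above Tap2 in each tumour.

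Gland 2 was the lowest gland for all 8 genes, and the share of all genes lowest there was not counted. It was low in lymphocyte markers and also had the lowest gland sums of macrophage, luminal, basal, adipocyte and endothelial markers. Its fibroblast marker sum was the highest of the glands, and it held skeletal muscle RNA. Tap1 was 53.7 FPKM in gland 2 against 82.4 and 97.5 FPKM in glands 1 and 3, while Tapbp was 125 against 185 and 182 FPKM. Ptprc, the pan-leukocyte gene CD45, measured 34.3, 15.5 and 27.5 FPKM for glands 1 to 3 and 7.27, 9.59 and 4.52 FPKM for tumours 1 to 3. All 10 macrophage markers were measured in every library, and their sum was 1553 to 1760 FPKM in the glands and 525 to 1198 FPKM in the tumours. Of the tested markers in limma, 9 of 11 for T and NK cells, 1 of 10 for B cells and lymph node, 5 of 10 for macrophages and 3 of 7 for basal epithelium were lower, as were all 8 for adipocytes, 6 for endothelium and 6 for fibroblasts and 0 of 5 for skeletal muscle. Of all tested genes, 23.1% were called lower. The 3 lower basal markers were Acta2, Myh11 and Oxtr. The basal markers Krt5 (0.27), Krt14 (0.02), Krt17 (0.33) and Trp63 (-0.64) did not pass, and Krt17 was higher in each tumour than in each gland. The part of these cell types in the differences was not tested. Setting each library against its own Ptprc level adds the same shift to every gene and moves the median difference of all tested genes to 1.71, and the mean of the 11 luminal markers moves it to -1.56. The members' side of 0 under these references is therefore set by the reference. Against the median of 1.71, Calr (2.46), Pdia3 (2.39) and Canx (2.02) lay above it and the other 5 genes below it, down to 0.97 for Tapbpl. Against the median of -1.56, the same 3 genes lay above it (-0.81, -0.88 and -1.25). The other 5 lay below it, down to -2.29 for Tapbpl. A shift common to all genes keeps each gene's distance from the median. This split was therefore fixed in advance and only repeats the unshifted fit.

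**Figure D3:**
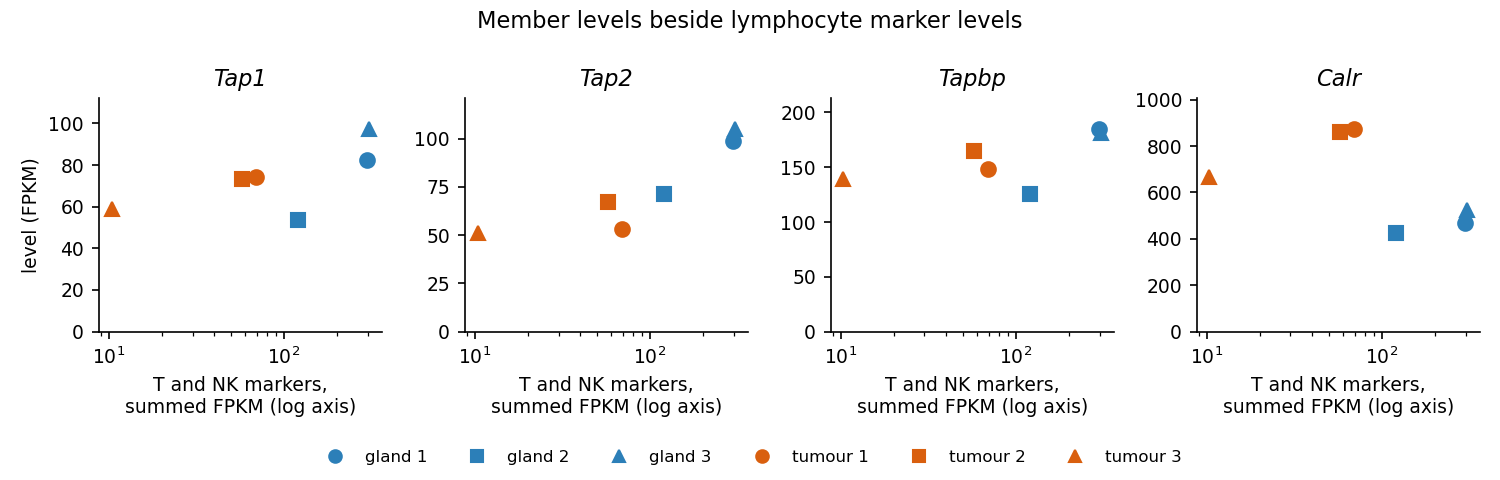
Level in FPKM of Tap1, Tap2, Tapbp and Calr in each library against the summed FPKM of 12 T and NK cell markers (log axis). The glands at 298 and 305 FPKM of markers have the highest Tap1, Tap2 and Tapbp, while Calr is highest in the tumours.

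**Figure D4:**
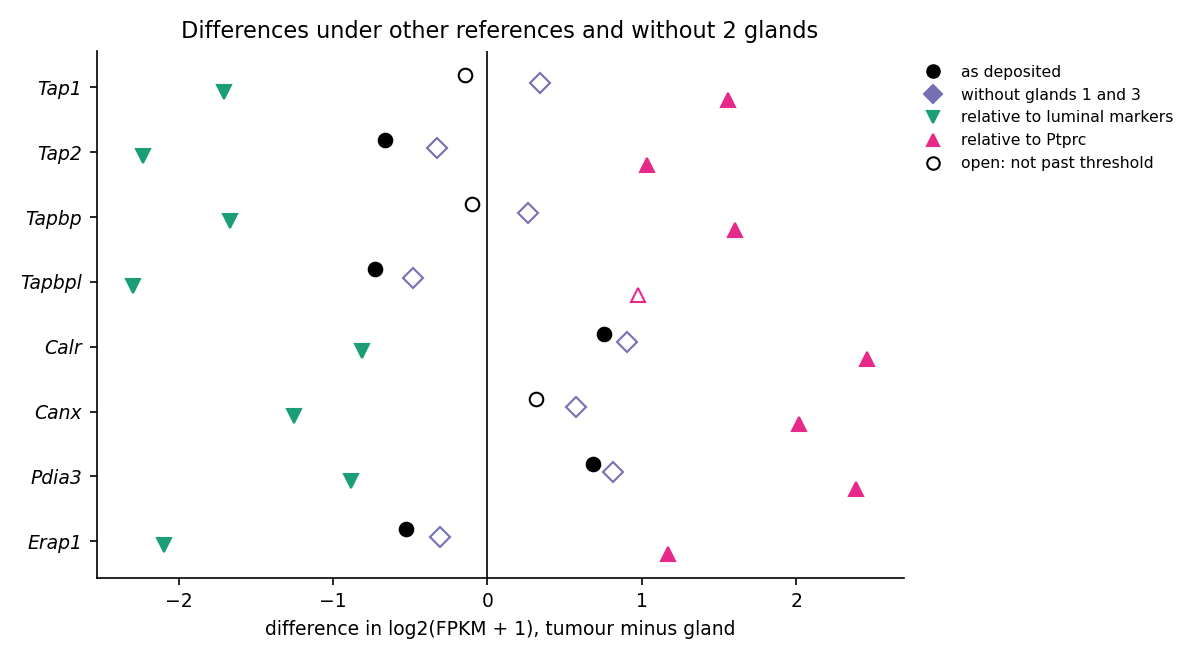
Difference in log2(FPKM + 1), tumour minus gland, of each gene as deposited (circles), without glands 1 and 3 (diamonds), relative to luminal markers (down triangles) and relative to Ptprc (up triangles), with open symbols for differences that did not pass. The last pair of references shifts all genes alike, to medians of -1.56 (luminal markers) and 1.71 (Ptprc) over all tested genes, which sets the side of 0 on which the 8 genes lie.

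The genes that supply and receive the peptides were described from lists. Among class I chains, proteasome parts and regulators, 1 of 14 tested genes was higher, 4 were lower and 9 did not pass, with a median of -0.38. Of all tested genes, 21.9% were called higher and 23.1% lower, so the count of lower genes is near the background. The interferon regulatory factor genes Irf1 (82.7 ± 23.0 to 37.2 ± 7.03 FPKM, -1.11, SE 0.23) and Irf2 (-0.86, SE 0.15) fell, as did the immunoproteasome gene Psmb10 (-1.07, SE 0.23). Psme3, the nuclear proteasome activator, rose from 42.6 ± 3.86 to 61.2 ± 4.32 FPKM (0.51, SE 0.11, adjusted p = 0.00931 in limma). The class I light chain gene B2m had 4204 ± 432 FPKM in gland and 3207 ± 555 FPKM in tumour tissue (-0.40, adjusted p = 0.144), and it passed without tumour 1 at -0.51 and with a common sum per library at -0.47. The heavy chain gene H2-D1 stood at 1288 ± 157 and 1012 ± 144 FPKM (-0.35, adjusted p = 0.134), and passed at -0.43 after quantile normalization and -0.42 with a common sum. Trim71, a ubiquitin ligase gene of the same list, was listed at 0 in every gland and in tumours 1 and 2 and at 0.0757 FPKM in tumour 3, and was not tested. Without glands 1 and 3, Irf1 was at -0.73, Irf2 at -0.55, Psmb10 at -0.65 and Psme3 at 0.66.

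Of 10 tested peptidases of the cytosol and endosomes, 3 rose, 1 fell and 6 missed the threshold, beside 21.9% and 23.1% of all tested genes, and the median was 0.30. Lnpep, an endosomal aminopeptidase named after its values were seen, did not pass at -0.54 (adjusted p = 0.057 in limma), with each tumour below each gland. Thop1, which degrades peptides in the cytosol, rose from 11.9 ± 1.02 to 39.0 ± 3.38 FPKM (1.64, SE 0.12, adjusted p = 1.05e-04 in limma). Tripeptidyl peptidase II (Tpp2, 0.59, SE 0.12) and the puromycin-sensitive aminopeptidase Npepps (0.47, SE 0.13) rose, and Nrd1, encoding nardilysin, fell by 0.37. The call of Npepps was lost without gland 1, gland 3 or tumour 2, at 0.44, 0.46 and 0.47. It was also lost with a common sum per library, at 0.40 (adjusted p = 0.109 in limma). That of Nrd1 was lost without any 1 library other than tumour 2, at -0.30 to -0.40. With the replicate number as a block neither Npepps nor Nrd1 passed (adjusted p = 0.0556 and 0.0762 in limma). Lap3 (0.29) and Blmh (0.22) did not pass, Lap3 passing without tumour 3 at 0.49. For these genes too, calls without glands 1 and 3 are not read, since 1 gland then stood for its group.

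The class II pathway, which loads peptides in endosomes of antigen-presenting cells, was lower in the tumours. Of its 11 genes 9 were lower, 0 higher and 2 did not pass, beside 23.1% lower and 21.9% higher among all tested genes. Their median was -2.07. H2-DMb1 and H2-DMa, subunits of the class II peptide editor, fell by 1.95 and 2.23, the class II chain gene H2-Eb1 by 2.44 and the invariant chain Cd74 from 1512 ± 361 to 300.5 ± 105 FPKM (-2.37, SE 0.32, adjusted p = 0.00127 in limma). Ctss (-0.06) and Ifi30 (0.31), a cathepsin and a lysosomal reductase, did not pass. Without glands 1 and 3, H2-DMb1 was at -1.52, H2-DMa at -1.86, H2-Eb1 at -2.12 and Cd74 at -1.96.

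**Figure D5:**
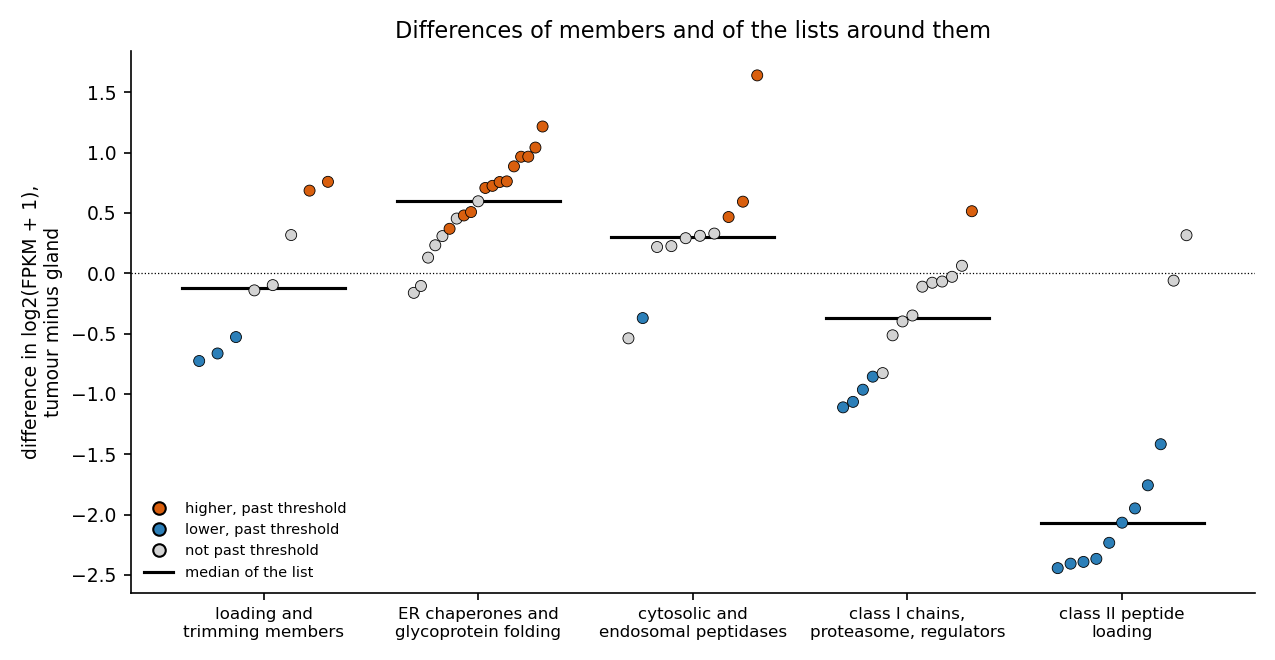
Difference in log2(FPKM + 1), tumour minus gland, of each tested gene of the 5 lists, ordered within a list, with a bar at the list's median and colours for genes higher (orange) or lower (blue) past the threshold. The ER chaperone list lies mostly above 0 (median 0.60), the class II list mostly below (median -2.07), and the loading and trimming genes on both sides (median -0.12).

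The genes whose levels followed each loading gene most closely over the 6 libraries are given as a description, since libraries of 1 group share their tissue. They were Ocel1 and Sike1 for Tap1, Armc5 and Tm7sf2 for Tap2, Cflar and Alkbh4 for Tapbp, and Osbpl8 and Adra2a for Tapbpl. They were Cnot11 and Usp1 for Calr, Ggnbp2 and Fubp1 for Canx, Prim2 and 3110082I17Rik for Pdia3, and Il4i1 and Mup17 for Erap1. Pearson's r lay between 0.977 and 0.999. An r over 0.9 was reached by 47 to 51 genes for Tap1, Tapbp and Canx, and by 806 to 1831 genes for each of Tap2, Tapbpl, Calr, Pdia3 and Erap1, the 5 that passed the test between the tissues.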

How the data were processed

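RNA-seq covered 3 gland and 3 tumour libraries. HISAT2, StringTie and mm10 are named in the submitters' processing notes, without versions or roles, and no source used here names the annotation. FPKM, a unit scaled by transcript length and library total, was read as the form of the deposited values, because the header names no unit and the values are not whole and sum to different totals. Of 24421 symbols, 13364 with a mean of at least 1 FPKM were tested on log2(FPKM + 1) with limma 3.58.1 (R 4.3.3, mean-variance trend, 2-sided, Benjamini-Hochberg over all tested genes, threshold 0.05). FPKM carry no counts, so counting error did not enter the model. From the steps between values under 0.3 FPKM, tumours 2 and 3 had about 1.58 and 1.51 times the depth of tumour 1, and tumour 1 had 0.694 and 0.689 times that of glands 1 and 2. Gland 3 had about 1.31 and 1.28 times the depth of glands 1 and 2, and tumour 2 had 0.841 times that of gland 3. The pairs of gland 3 with tumours 1 and 3 gave 1.58 and 1.60, which did not match the other pairs. These estimates are rough.

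Ratios between members had a 2-sided exact permutation test over 20 arrangements (SciPy 1.17.1), whose smallest p is 0.1, adjusted over 4 ratios. Samples were grouped by their titles. The replicate numbers were not used as pairs, because same-numbered deviations from the group means had r = -0.054, -0.118 and -0.124 across genes. Genes were placed with GENCODE M21 (GRCm38), and promoter windows came from RefSeq (GRCm38.p6), found for 6 of 8 members. The members, lists and alternatives were chosen with earlier results of these data known, so none is independent evidence of a direction. All 8 members were named, and in each other list the called genes of lowest p (4 at most) and the uncalled ones of highest mean (2 at most), with overlapping genes and, for each member, the 2 genes of highest Pearson r. Cell type marker lists were T and NK cell, B cell and lymph node, macrophage, luminal, basal, adipocyte, endothelial, fibroblast and skeletal muscle.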

Additional observations from a re-analysis of the deposited data

How the results depend on the processing

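With the replicate number as a block, Tap2 kept its difference of -0.67 but not its call (adjusted p = 0.0647 in limma), and the other 7 members kept their call or lack of one. The replicate numbers gave no sign of pairing. Without glands 1 and 3, limma called 0 members higher and 0 lower, with Tap1 at 0.34, Tap2 at -0.33, Tapbp at 0.27, Tapbpl at -0.48, Calr at 0.91, Pdia3 at 0.82 and Erap1 at -0.31. Over all genes 790 were then higher and 1262 lower. One gland then stood for its group and was assumed to vary like the tumours. A fold of at least 2 left 0 members higher and 0 lower (Tap2 -0.67, Tapbpl -0.73, Calr 0.76, Pdia3 0.68, Erap1 -0.53), and 1025 and 1942 of all genes. At a mean of at least 5 FPKM, 2464 genes were higher and 1864 lower.

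Both references below shift every gene alike, to an all-gene median of -1.56 for luminal markers and 1.71 for Ptprc, so member signs follow the reference. Relative to luminal markers 0 members were higher and 8 lower, with Tap1 at -1.71, Tapbp at -1.66, Calr at -0.81, Canx at -1.25 and Pdia3 at -0.88. Relative to Ptprc, Tap1 was at 1.56, Tap2 at 1.04, Tapbp at 1.602, Tapbpl at 0.97, Canx at 2.02 and Erap1 at 1.17. The share of all genes called in these 2 fits was not counted, so calls of members there are not read. Leaving out 1 library gave Tap1 -0.39 to 0.039, Tap2 -0.84 to -0.56, Tapbp -0.28 to -0.00095, Canx 0.13 to 0.53, Tapbpl -0.85 to -0.60 and Erap1 -0.64 to -0.44. It gave 0 to 3 members lower (1 without gland 1, 0 without gland 3), 2 higher throughout, and 2049 to 3130 higher and 2258 to 3241 lower of all genes. Ppib turned to -0.0020 after quantile normalization, -0.0099 with tumours 1 and 2 averaged and -0.070 without tumour 1, and lay between -0.070 and 0.41 without 1 library. Psmb8 turned to -0.066 after quantile normalization, -0.0072 with a common sum and -0.014 with tumours 1 and 2 averaged, and lay between -0.080 and 0.21 without 1 library. Ctss turned to 0.26 without glands 1 and 3 and lay between -0.28 and 0.25 without 1 library. The causes were not tested. All 4 ratios stayed within 1 SD between replicates of their main value under 11 alternatives. The exact test could not pass in any of them, and scaling between libraries nearly cancels in a ratio. This therefore describes the values only. Quantile normalization moved the median difference of all genes to 0.11. Absolute depth is unknown, so no counting limit can be given for low genes.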
